A study of Mus musculus with 4 samples.

Results

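The effect of N-methyl-N-nitrosourea (MNU) on the wild-type thymus transcriptome is described here across 10587 of the 10598 gene symbols in the deposited table, those with a mean of at least 10 normalised counts over the 4 libraries of the series. MNU is an alkylating mutagen that induces T-cell lymphoma in mice. The 4 libraries were made from thymus of C57BL/6J mice: wild type with vehicle, wild type with MNU, and mice lacking CaMKII gamma (Camk2g knockout, written CAMKIIgamma-/- in the labels) with vehicle and with MNU. Animals were 4 to 5 weeks old when MNU was injected once into the peritoneum at 75 mg/kg, with a labelled time of 6 months. The comparison sets the 1 wild-type library with MNU against the 1 wild-type library with vehicle, called without MNU below. The labels do not say whether a library came from 1 animal or a pool, nor whether the MNU thymus held a tumour. With 1 library per group no difference has a replicate check, and no p-value or error can be given. Each value is printed as the normalised count in each library, a gene is counted as higher or lower when log2(value + 10) differed by 1 or more (2-fold), and fold differences of single genes are ratios of normalised counts, given only where both libraries reached 10.

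In the thymus, progenitors receive NOTCH signals from the cortical epithelium, rearrange their T-cell receptor genes, pass through a stage with both CD4 and CD8, and are selected on peptide-MHC complexes shown by cortical and medullary epithelium and by dendritic cells. Cells that pass selection switch on chemokine and sphingosine phosphate receptors and leave. T-cell lymphomas of mice often carry an activated NOTCH1 receptor, whose released intracellular part binds the DNA-binding protein RBPJ and switches on Dtx1, Hes1, Ptcra and other targets.

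Totals were close, at 33288000 normalised counts without MNU and 34836257 with MNU in wild type, and the 20 most abundant genes took 4.80% and 4.90% of them. The knockout library without MNU stood apart in 1 respect that touches the values shown beside the comparison. In 39 genes that passed 1000 in the wild-type MNU library and were more than 20-fold above both the wild-type vehicle and the knockout MNU library, it held a median of 15.3% of the wild-type MNU level (13.2% to 21.4%), after subtracting the mean of those other libraries. In the calculations here this library enters the wild-type comparison only through the gene filter. Whether the normalisation of the deposited values drew on it is not known. Where 4 values are given, the order is wild-type vehicle, wild-type MNU, knockout vehicle and knockout MNU. The targeted gene Camk2g stood at 2749, 3173, 489 and 29.7 in that order. Its value in the library labelled knockout vehicle was above the knockout MNU library and was 15.4% of the wild-type MNU value, with nothing subtracted. Camk2g was also high in wild-type vehicle, so this percentage is not the measure used for the 39 genes. Values of the library labelled knockout vehicle are printed as deposited, and the origin of the share was not tested.

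Over all genes analysed, 756 (7.14%) were at least 2-fold higher and 1500 (14.2%) at least 2-fold lower with MNU, 2256 (21.3%) together, and 8331 (78.7%) were within 2-fold. At 4-fold, 2.45% were higher and 6.48% lower, 8.93% together. These shares are the background for each count below. The median log2 difference over all genes was -0.01 and the mean -0.16. Of the 10587 genes 5265 lay above 0, the background for counts of genes above their level without MNU. Differences beyond 8-fold (3 on the log2 scale) were found for 135 genes on the higher side and 355 on the lower. More genes were thus low with MNU than high: 37 genes had at least 1000 normalised counts without MNU and under 30 with it, and 19 genes had under 30 without MNU and at least 1000 with it. No gene was listed at 0 without MNU and 25 were with it, the most abundant being the adipocyte hormone gene Lep at 2877 without and 0 with MNU. Among genes with a mean over the 4 libraries of 300 to 1000, 22.3% were lower and 9.18% higher, and above 10000 these shares were 9.15% and 5.01%. Genes of lower abundance were thus called more often in both directions. The median log2 difference was -0.13 for means of 300 to 1000 and 0.18 above 10000. At the edge of the 2-fold line, Gtf2h5 and Ccs lay just inside with log2 differences of 1.003 and -1.001, and Ctla2b and Tbxa2r just outside at 0.999 and -0.998. Because the thymus was measured in bulk, fewer cells of a type and less RNA per cell cannot be told apart.

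**Figure D1:**
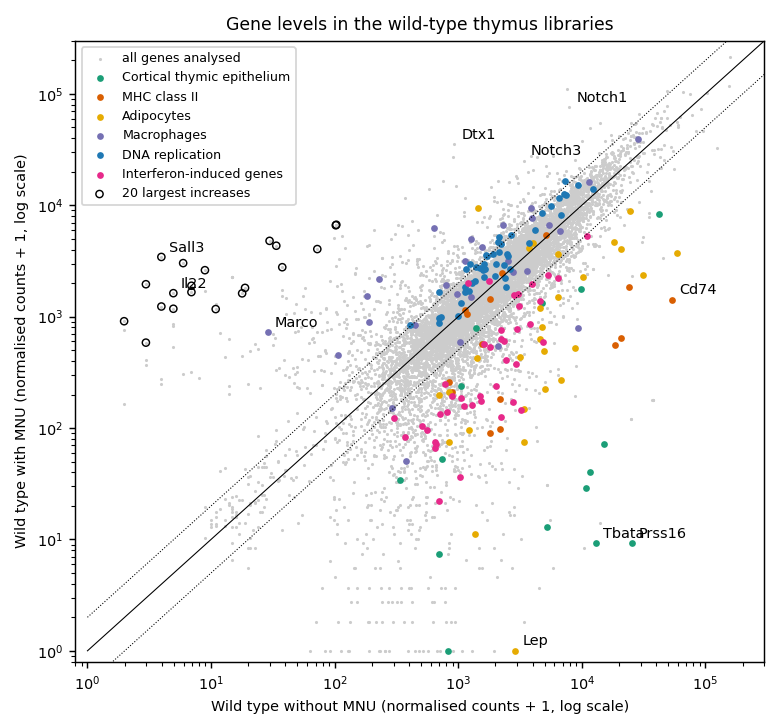
Normalised counts plus 1 of each gene in wild type without MNU (horizontal, log scale) and with MNU (vertical, log scale), 1 library each. The solid line marks equal values and the dotted lines a 2-fold difference. Cortical epithelial genes such as Prss16 (25293 and 8.26) lie far below the line, and the 20 largest increases, circled, lie at or below 102 without MNU and between 583 and 6685 with it.

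NOTCH receptors and their targets were among the most abundant transcripts that were higher with MNU, while both measured ligand genes were lower. The receptor genes Notch1 and Notch3 stood at 7913 without and 76273 with MNU and at 3386 without and 25218 with MNU. Over the 4 libraries Notch1 had 7913, 76273, 18411 and 8987 normalised counts, so the wild-type library with MNU was the highest of the 4 and stood apart from the others. The receptor gene Notch2 was at 2171 and 1539, within 2-fold. The ligand genes Dll4, expressed by cortical epithelium, and Jag2 were 14.2-fold lower (737 without and 51.9 with MNU) and 4.27-fold lower. Of the signal-limiting and transcriptional partners, the glycosyltransferase Lfng was 3.08-fold lower and the coactivator Maml2 4.44-fold lower. In the list of receptors, ligands and processing enzymes, 3 of 24 measured genes were higher and 4 lower (median log2 difference -0.08), and the DNA-binding partner Rbpj stood at 3873 and 3106. Among targets, 7 of 13 measured genes were higher and 4 lower (median log2 difference 1.08). The ubiquitin ligase gene Dtx1 stood at 931, 35307, 6307 and 978 in the 4 libraries, the repressor gene Hes1 was 3.76-fold higher, the feedback inhibitor Nrarp 2.15-fold higher and the interleukin-2 receptor chain Il2ra 3.81-fold higher. The 4 lower targets were Hey1 (10.3-fold lower), Ccr7, also a receptor of mature thymocytes and dendritic cells (67.8-fold lower), Lfng, given above, and the T-lineage factor Tcf7 (2.07-fold lower).

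The CD3 genes of the T-cell receptor complex were within 2-fold, and several surface molecules of selected thymocytes were far lower. Of co-receptor and CD3 genes, 1 of 29 measured genes were higher and 10 lower (median log2 difference -0.86). The library labelled thymus with MNU held the T-lineage markers Cd3e (9345 and 4920.0), Cd4 (42622 and 21616), Cd8a (59567 and 50774) and Lck (52941 and 33349.9), each value being without and then with MNU. Cd4 (log2 difference -0.98) and Cd3e (-0.92) fell just short of the 2-fold line, and Cd8b1 passed it (-1.07). Cd69, which marks cells that have received a receptor signal, stood at 1980.3 without and 41.7 with MNU, the inhibitory receptor Btla at 943 without and 39.8 with MNU, and Cd5, whose level follows the strength of the receptor signal, was 4.80-fold lower. The inhibitory receptor genes Lag3 and Pdcd1 were 3.10-fold lower and 2.96-fold lower. Ptcra, the chain that pairs with the beta chain before alpha rearrangement, was the 1 member that was higher (4.11-fold higher).

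Rearrangement genes were lower where they are specific to lymphocytes. Rag1 and Rag2, the recombinase pair, stood at 123683 without and 32664 with MNU and at 6793 without and 2113 with MNU, and the polymerase Dntt at 45759.9 without and 3376 with MNU. Over the 4 libraries Rag1 had 123683, 32664, 73746 and 99894, with the wild-type library with MNU lowest. The general end-joining genes differed little: Lig4, the ligase, stood at 5489 and 5819, Xrcc5 at 1135 and 1275 and Atm at 2517 and 2766. Xrcc6, which encodes the Ku70 partner of the Xrcc5 product, was the exception at 14053, 54483, 17859.8 and 10702 in the 4 libraries, 3.88-fold higher in wild type with MNU. Of the 13 genes of this list 1 was higher and 3 lower (median -0.29).

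The kinases and adaptors next to the receptor differed in both directions. Of 38 genes 2 were higher and 8 lower (median -0.15). The kinase Zap70 (5992 and 13525) and the phosphatase Ptpn22 (4173 and 10802) were higher. The adaptor Lcp2 (SLP-76) was 2.43-fold lower, the selection factor Themis 2.66-fold lower and the RAS activator Rasgrp1 2.58-fold lower. The diacylglycerol kinase Dgka, which ends the signal that Rasgrp1 reads, was the most reduced at 16412 without and 2340.4 with MNU. Immediate-early genes, which follow receptor signals and also tissue handling, were lower in 12 of 20 cases and higher in 0: Egr2 stood at 731 without and 71.4 with MNU, Jun at 1696 without and 365 with MNU and Nr4a1 at 4126 without and 1333 with MNU. The stress chaperone genes Hspa1a and Hspa1b were 5.23-fold lower and 6.00-fold lower. The part of handling or RNA quality in these values was not tested.

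Along the RAS and MAP kinase pathway, most feedback genes beyond 2-fold were lower. The phosphatase genes Dusp4, Dusp5 and Dusp6, which are induced by ERK and act on MAP kinases, were 7.25-fold lower, 2.51-fold lower and 3.13-fold lower, and Spred1, an inhibitor of RAF activation, was 3.11-fold lower. Spry1, another feedback inhibitor, was 2.84-fold higher (486 without and 1379.6 with MNU), and the RAS GTPase-activating gene Rasal1 was 2.60-fold higher whereas Rasal3 was 2.66-fold lower. The RAS gene Nras stood at 5139.6 and 4627, within 2-fold. In all, 2 of 28 were higher and 7 lower. In the PI3K pathway 6 of 27 were higher and 3 lower: the regulatory subunit Pik3r1 was 2.14-fold higher, the mTORC1 component Rptor 2.07-fold higher, the FOXO factor Foxo1 2.65-fold higher and its target Sesn3 3.15-fold higher, while the leukocyte catalytic subunit Pik3cd was 2.85-fold lower and Pik3r5 3.29-fold lower.

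Transcription factors of the T lineage differed in both directions. Of 26 factors 2 were higher, Runx3 and Foxo1, and 7 lower (median -0.39). Tcf7 stood at 96028 and 46392, just past 2-fold lower, Bcl11b at 24051 and 17766 and Satb1 at 84401 and 46784. The CD4-lineage factor Zbtb7b stood at 1495 without and 188 with MNU, and Id3, an inhibitor of E proteins induced by receptor signals, at 2951 without and 371 with MNU. Runx3, a factor of the CD8 lineage, was higher at 1003 without and 3409 with MNU. The selection-associated gene Tox was 2.88-fold lower and Gata3 2.23-fold lower. Of the progenitor and T-leukaemia factors, 4 of 18 were measured: Lmo2 (309 and 265) and Lyl1 (179 and 228) were within 2-fold, and Meis1 and Cebpa, which other cells of the organ also express, were 14.7-fold lower and 7.25-fold lower.

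Genes of maturation and exit had the lowest median of the T-lineage lists. In that list 17 of 24 genes were lower and 2 higher (median -2.00), against 14.2% lower among all genes. Ccr7, which draws selected cells into the medulla, had 2829, 41.7, 2195 and 3172 in the 4 libraries, so that the wild-type library with MNU stood alone below the other three. Klf2, the factor that switches on exit receptors, was 3.61-fold lower, the alphaE integrin Itgae 7.17-fold lower, and Ms4a4b, a membrane protein of mature T cells, stood at 1767 without and 47.3 with MNU. The GIMAP genes encode GTPases that support lymphocyte survival, and all 8 measured were lower, by log2 differences of -1.45 to -5.29 (median -2.996). Gimap3 stood at 2234 without and 47.3 with MNU, Gimap8 at 3719 without and 151 with MNU and Gimap1 at 3399 without and 457 with MNU. The schlafen genes did not move with them: of 7 measured, 3 were higher, among them Slfn3 (2.32-fold higher), and 2 lower, among them Slfn1 (3.19-fold lower).

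Cytokine receptors changed in composition. Il7r, the receptor chain that supports thymocyte survival, stood at 1702, 116, 3061 and 2587 in the 4 libraries, and its ligand gene Il7, made by epithelium, at 694 without and 6.40 with MNU. Il9r, a receptor chain that shares the common gamma chain, was 6.78-fold higher (464 without and 3148 with MNU), Il12rb2 3.75-fold higher, Il21r 5.31-fold lower and Il4ra 4.56-fold lower. The common chain Il2rg itself was 2.02-fold lower. The feedback genes Cish, Socs1 and Socs2, induced by STAT factors, were 20.6-fold lower, 3.04-fold lower and 2.91-fold lower, whereas Socs3 was 2.46-fold higher, and the kinase Pim1, another STAT target, was 2.72-fold lower. Of 48 genes 4 were higher and 15 lower. Of 11 measured cytokine genes 7 were lower, among them Kitl (4.44-fold lower) and Flt3l (4.82-fold lower), growth factors for progenitors. The 2 that were higher were Il22 and its near-identical copy Iltifb. In the TNF family 11 of 23 were lower: the helper T-cell ligand Cd40lg stood at 289 without and 1.75 with MNU, its receptor Cd40 at 549 without and 23.1 with MNU, and Ltb, a lymphotoxin that maintains medullary epithelium, was 4.71-fold lower. Tnfrsf8 (CD30), a marker of activated and transformed lymphocytes, was 6.95-fold higher and Tnfsf11 (RANKL) 4.29-fold higher.

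The BCL2 family differed in both directions. The survival gene Bcl2 stood at 2264 without and 279 with MNU and Bcl2l2 at 998 without and 151 with MNU while Bcl2l1 (BCL-XL, 6708 and 3403) and Mcl1 (16625 and 10412) were within 2-fold. Of the killer genes, Bcl2l11 (BIM) was 2.82-fold higher, Bmf 3.35-fold higher and Bik 10.2-fold higher (32.7 without and 332 with MNU), and Pmaip1 (NOXA) and Bok were 4.46-fold lower and 6.93-fold lower. In all 3 of 19 members were higher and 6 lower. Genes of the p53 pathway followed the background more closely, with 1 of 22 higher and 4 lower: Trp53 stood at 4198 and 3674, Cdkn1a, the cell-cycle inhibitor p21, at 998 and 874, Mdm2 at 4494 and 4299 and Zmat3 at 811 without and 2929 with MNU. Perp, which also builds epithelial junctions, stood at 1833 without and 76.1 with MNU.

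**Figure D2:**
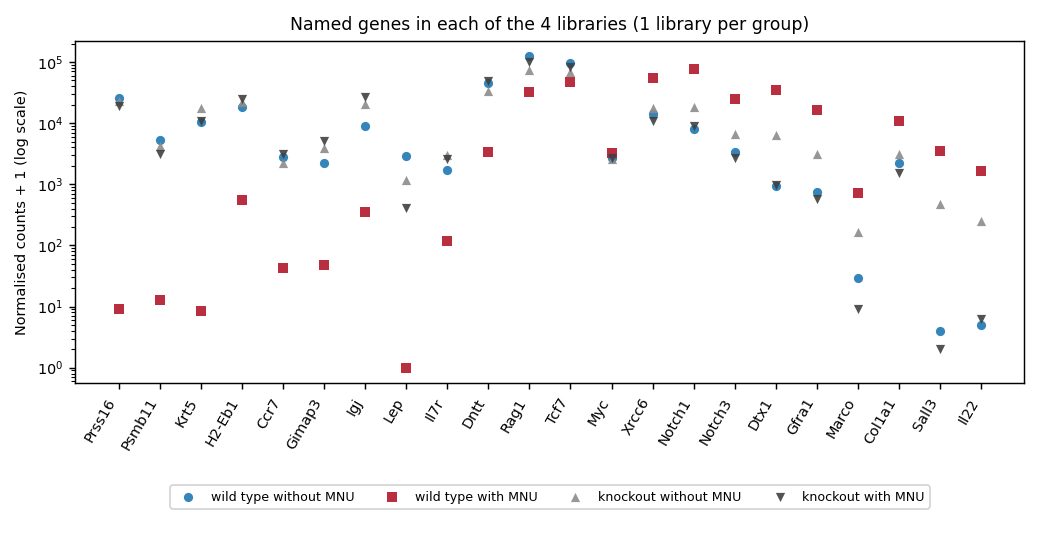
Normalised counts plus 1 (log scale) of named genes in each of the 4 libraries, 1 point per library. Wild type with MNU (red squares) lies below the other libraries for Prss16, Ccr7, Gimap3 and Il7r and above them for Notch1, Dtx1 and Xrcc6; Lep is listed at 0 there, and Myc differs little between libraries.

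Genes of DNA replication and mitosis lay above their level without MNU in nearly every case, by less than 2-fold in the median. Of 47 replication genes 45 were above and 2 below their level without MNU, 10 by 2-fold or more, and the median log2 difference was 0.70. All 6 subunits of the MCM2-7 helicase lay above, by log2 differences of 0.72 to 1.17. Mcm5 was the 1 among them beyond 2-fold, at 7295 without and 16379.6 with MNU. Dbf4, the activator of the CDC7 origin kinase, was 2.44-fold higher, the primase subunit Prim2 2.42-fold higher, the GINS subunit Gins2 2.39-fold higher and the leading-strand polymerase Pole 2.26-fold higher. Of 46 mitotic genes 44 were above and 2 below, 8 beyond 2-fold (median 0.67). The phosphatase Cdc25c, which starts mitosis, was 2.61-fold higher, separase (Espl1) 2.47-fold higher, the condensin subunit Ncapd2 2.12-fold higher and the anaphase activator Cdc20 2.17-fold higher. Of 59 replication-dependent histone genes 5 were higher and 6 lower (median 0.01), and the classes of the Hist1 cluster differed: log2 differences were 0.39 to 0.74 over 9 H3 genes and 0.70 to 1.33 over 11 H4 genes, but -0.03 to 0.22 over 12 H2A genes and -1.07 to -0.04 over 15 H2B genes. The classes were separated after the values were seen, and histone genes are close copies that can share reads.

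The promoter of Mcm5 is shown, and those of both lists were searched, because E2F factors, which drive S-phase genes, and NF-Y, which drives mitotic genes, read short motifs close to the start. Sequences come from RefSeq on build GRCm38.p6, while the count table was made with mm9, and cover 250 bases before the start. A promoter was available with a single start for 6692 of the 10587 genes. The E2F letters TTTGGCGC or TTTCCCGC, on either strand, were present in 6 of 32 replication promoters (18.8%) against 2.93% of all 6692. Among all genes higher with MNU the share was 2.61%, and among those lower 1.23%. The promoter of Mcm3 held no E2F match. CCAAT, the NF-Y motif, was present in 27 of 36 mitotic promoters (75.0%) and 19 of 32 replication promoters (59.4%) against 38.5% of all. It was in 38.5% of promoters of all genes higher with MNU and 36.9% of those lower. The RBPJ letters TGGGAA were present in 18.9% of promoters of higher genes, 22.5% of those of lower genes and 20% of all. They were found in 3 of 7 promoters of NOTCH targets (42.9%), and not in those of Notch1 or Dtx1. The share was similar in replication promoters, at 13 of 32 (40.6%). These are matches of letters, not measured binding. The Mcm5 promoter (chr8:75109259-75109508, plus strand) holds an E2F match on the reverse strand starting 149 bases before the start, in capitals:
Mcm5: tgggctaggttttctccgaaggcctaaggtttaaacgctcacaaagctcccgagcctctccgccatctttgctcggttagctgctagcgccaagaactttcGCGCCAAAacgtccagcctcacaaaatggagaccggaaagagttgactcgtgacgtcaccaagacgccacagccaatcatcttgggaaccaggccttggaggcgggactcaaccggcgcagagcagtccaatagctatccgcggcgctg

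The G1 regulators differed from the replication genes downstream of them. The D-type cyclin genes Ccnd2 and Ccnd3, which link growth signals to the cycle, stood at 4250.1 without and 293 with MNU and at 34885 without and 8600.0 with MNU, and their kinase Cdk6 was at 899 and 453. The inhibitor Cdkn1b (p27) was 2.31-fold lower, and Cdkn2a, the locus of p16 and ARF, stood at 34.7, 347, 149 and 100.1 in the 4 libraries, highest in wild type with MNU. The E2F genes did not move together: E2f2 was 4.28-fold lower, E2f1 stood at 1462 and 1918 and E2f3 at 1331 and 2518. Of 23 genes 1 was higher and 4 lower.

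Repair genes that work at replication forks lay above their level without MNU in 24 of 29 cases. Of 29 Fanconi, recombination and checkpoint genes 5 were higher and 0 lower (median 0.44). Brca2, which acts in homologous recombination, was 2.91-fold higher, the checkpoint activator Topbp1 2.75-fold higher (7444 without and 20464 with MNU), the fork protein Timeless 2.69-fold higher and Fanca 2.24-fold higher. Of genes that repair alkylated bases or mismatches 2 of 19 were higher (median 0.45). Mgmt, the methyltransferase that removes the O6-methylguanine that MNU makes, stood at 113, 189, 118 and 82.8 in the 4 libraries, a low level in each of them. The mismatch recognition gene Msh6 stood at 8026 and 6989.

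Genes of biosynthesis lay above their level without MNU by small amounts. All 79 ribosomal protein symbols of the cytosol lay above their level without MNU (median 0.53). Rpl3l, a muscle form, was far above the others at 5.94 without and 1893 with MNU, and the remaining 78 spanned log2 differences of 0.13 to 1.18. Nucleolar and growth genes activated by MYC had a median of 0.73, with 29 of 31 above 0: the box C/D ribonucleoprotein gene Nop58 was 2.62-fold higher, the pyrimidine synthesis enzyme Cad 2.46-fold higher and Rrp12 2.33-fold higher. Myc itself stood at 2654, 3303, 2574 and 2736 in the 4 libraries, and no other gene of the MYC and MAX network passed 2-fold except Mlxipl (9.25-fold lower), a glucose-responsive factor also expressed in fat. Proteasome subunits were above 0 in 30 of 31 cases (median 0.32), mitochondrial ribosomal proteins in 58 of 75 (median 0.22) and respiratory chain genes in 58 of 76 (median 0.17). The 2 respiratory genes that were lower beyond 2-fold, Cox8b (802 without and 31.5 with MNU) and Cox7a1 (399.7 without and 12.9 with MNU), are forms of muscle and brown fat. Over all 10587 genes, 5265 lay above 0. Under equal totals the median over all genes was -0.07, and 4830 lay above 0. The ribosomal proteins of the cytosol all remained above 0 there, proteasome subunits in 27 cases, mitochondrial ribosomal proteins in 51 and respiratory chain genes in 53.

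Metabolic lists differed in how many genes passed 2-fold, against 21.3% of all genes. In glycolysis 3 of 20 were higher, namely the lactate exporter Slc16a3 (107 without and 859 with MNU), the pyruvate kinase Pkm2 (2.45-fold higher) and Pgk1 (2.10-fold higher). In nucleotide and one-carbon synthesis 4 of 39 were higher, among them the dUTPase Dut (2.09-fold higher) and adenylosuccinate lyase Adsl (2.07-fold higher), and 1 was lower, Samhd1, which breaks down deoxynucleotides (3575 without and 819 with MNU). Of 23 lipid synthesis genes 5 were lower and 0 higher. They included Scd1, the stearoyl-CoA desaturase abundant in fat, at 58673 without and 3708 with MNU and Fasn at 24684 without and 8896 with MNU, whereas Scd2 stood at 23601 and 29935 and Srebf2 at 8845 and 11049.5. Of iron and redox genes 5 of 18 were higher: haem oxygenase (Hmox1) was 9.71-fold higher, the metallothioneins Mt1 and Mt2 were 3.54-fold higher and 5.54-fold higher, the cystine carrier Slc7a11 2.27-fold higher and the iron importer Slc11a2 2.34-fold higher, while the 2 lower genes were the iron exporter Slc40a1 (3.79-fold lower) and the quinone reductase Nqo1 (7.45-fold lower). Epas1 (HIF-2 alpha) was 5.61-fold higher (1951 without and 10934 with MNU) and Egln3 2.72-fold higher, but the hypoxia genes Vegfa (1142 and 646), Slc2a1 (937 and 776) and Adm (319 and 227) were within 2-fold.

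**Figure D3:**
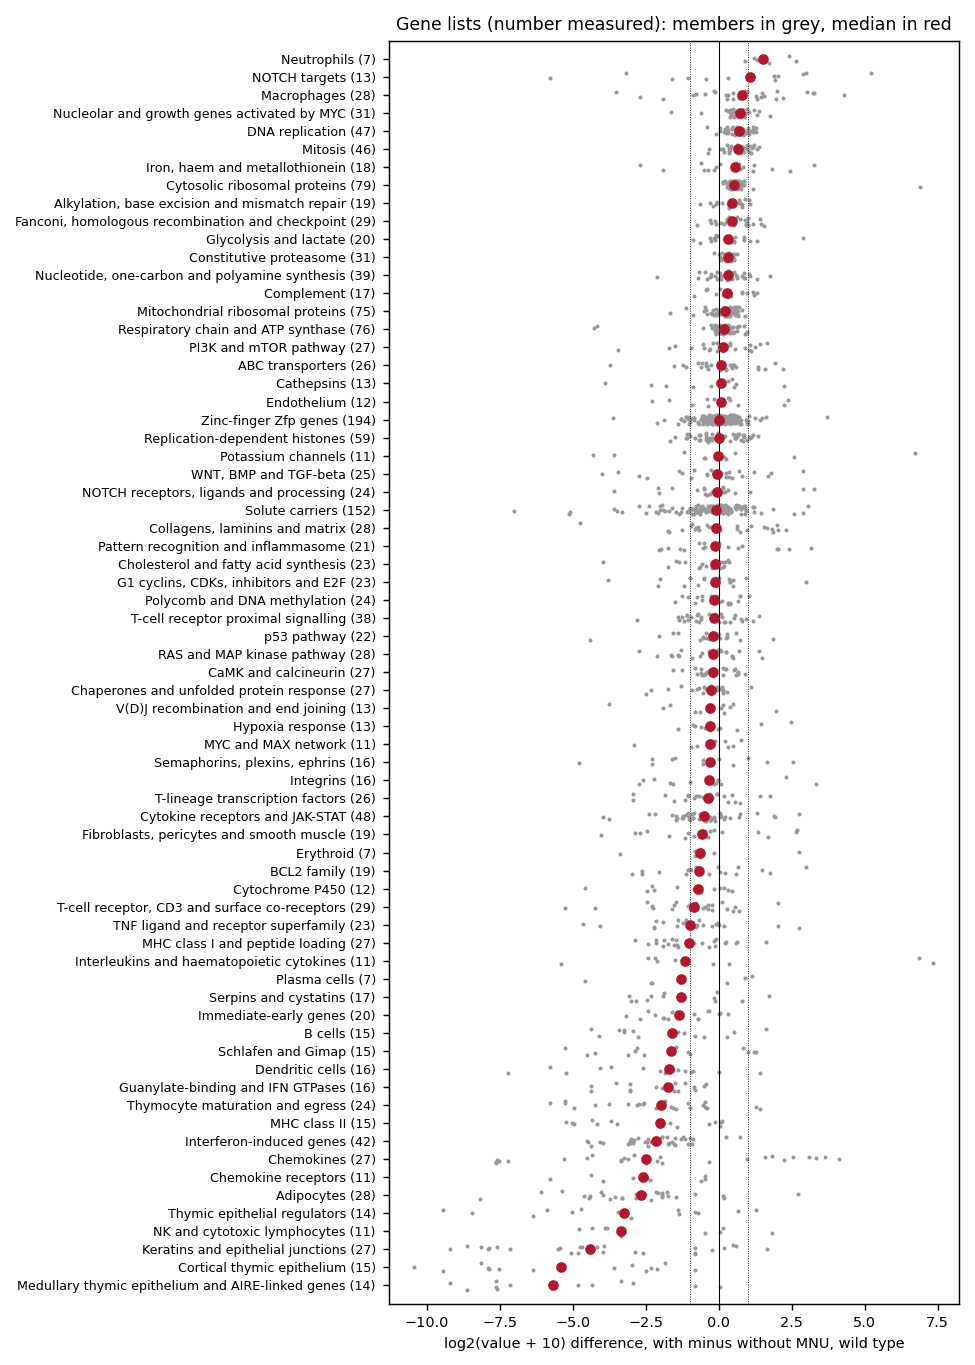
Differences of log2(value + 10), wild type with minus without MNU, for gene lists with at least 7 measured members, ordered by median. Grey points are genes, red points medians, and dotted lines mark 2-fold. Medullary (-5.67) and cortical (-5.42) epithelium lie at the bottom, and neutrophil genes (1.505) and NOTCH targets (1.08) at the top.

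Most of the defining transcripts of thymic epithelium were at or near 0 with MNU, whereas Epcam was within 2-fold (log2 difference -0.82). The label gives thymus, and in this library Foxn1, the master factor of thymic epithelium, stood at 821 without and 0 with MNU. Prss16, a serine protease of cortical cells, stood at 25293, 8.26, 22698 and 18685 in the 4 libraries, and Psmb11, the thymoproteasome subunit of cortical cells, at 5200.1, 11.98, 4296 and 3175. Of cortical genes 14 of 15 were lower and none higher (median -5.42), and their summed normalised counts were 142653 and 12784 without and with MNU. Genes of this list with expression in other cells kept more signal: the protease Ctsl was 4.99-fold lower, the chemokine Cxcl12 5.61-fold lower and Kitl 4.44-fold lower. Of medullary genes 12 of 14 measured were lower, with Aire, the regulator of tissue-restricted antigens, at 797 without and 29.6 with MNU, the regulator Fezf2 at 521 without and 0 with MNU and the casein Csn2 at 480.0 without and 0 with MNU. The cornified-layer genes Sprr2a1 and Sprr2a2, named outside the rule and with identical values in every library, stood at 5221 without and 29.6 with MNU. Of the 27 keratin and junction genes 19 were lower, 7 within 2-fold and 1, Grhl2, higher (log2 difference 1.64). The desmosomal genes Dsp and Pkp1 stood at 5556 without and 13.8 with MNU and at 1929.7 without and 0 with MNU, and Trp63, a factor of basal epithelium, at 1567 without and 16.6 with MNU. Those within 2-fold included Krt10 (log2 difference 0.57), Cdh1 (0.49), Jup (0.18) and Cldn4 (-0.82). Regulators with roles in other cells differed in size and direction: the NF-kappaB genes Relb and Nfkb2 were 8.45-fold lower and 2.60-fold lower, and Traf6 was 2.42-fold higher.

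Fat transcripts were also low. Of 28 adipocyte genes 24 were lower and 1 higher (median -2.68), and their summed normalised counts were 244504 and 55046 without and with MNU. Adipoq stood at 4940.3, 489.7, 5668 and 1936 in the 4 libraries, Plin1, which coats lipid droplets, at 3389, 148, 3097 and 1147, and the brown-fat uncoupling gene Ucp1 at 3415, 73.3, 1224 and 1256. In knockout with MNU these 3 genes were also below wild type without MNU, by less than in wild type with MNU. Adipocytes can enter a thymus sample from tissue around the organ, and their part in the loss of other lists was not tested.

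Antigen presentation was lower, more for class II than for class I. Of 15 class II genes 10 were lower and 0 higher. Ciita, the master activator of class II genes, had 2167, 97.5, 2311 and 2696 in the 4 libraries and H2-Aa, a class II alpha chain, 20551, 642, 25348 and 27054, the wild-type library with MNU being lowest for both. The promoter-binding subunits Rfx5, Rfxap and Rfxank, which are present in most cells, stood at 1809 and 1433, 1172 and 1058 and 2273 and 2474, and the protease Ctss at 5143 and 5428. H2-Aa and H2-Eb1 are shown because class II promoters carry a CCAAT box close to the start: it was found in 9 of 10 class II promoters against 38.5% of all 6692. The CCAAT letters on either strand (ATTGG on the reverse) are in capitals, and the H2-Aa promoter lies at chr17:34287824-34288073, minus strand, and that of H2-Eb1 at chr17:34305617-34305866, plus strand, on GRCm38.p6:
H2-Aa: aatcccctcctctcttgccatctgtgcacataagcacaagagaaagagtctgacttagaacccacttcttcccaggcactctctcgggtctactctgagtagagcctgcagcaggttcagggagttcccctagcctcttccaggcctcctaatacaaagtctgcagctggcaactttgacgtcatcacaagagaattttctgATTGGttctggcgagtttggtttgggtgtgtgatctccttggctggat
H2-Eb1: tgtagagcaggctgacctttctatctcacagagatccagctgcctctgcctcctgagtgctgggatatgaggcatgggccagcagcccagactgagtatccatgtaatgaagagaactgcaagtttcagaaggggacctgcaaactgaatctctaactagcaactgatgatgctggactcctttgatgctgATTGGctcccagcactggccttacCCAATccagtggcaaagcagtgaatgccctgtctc

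Class I genes were lower by less. Of 27 genes 15 were lower and 1 higher (median -1.01). Nlrc5, the class I activator, stood at 2809 without and 378 with MNU, the heavy chain H2-K1 at 34769.6 without and 7843 with MNU, the immunoproteasome subunit Psmb10 at 4095 without and 1483 with MNU, and B2m at 44295 and 50784. All 8 measured H2-Q genes were lower, by log2 differences of -1.12 to -2.42. The non-classical H2-T genes were divided: H2-T23 was 2.62-fold lower, H2-T10 3.08-fold higher and H2-T3, the thymus leukaemia antigen gene named outside the rule, 17.2-fold higher (421 without and 7247 with MNU). H2-Q and H2-T genes are close copies of each other, and reads can be split between them.

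Interferon-induced genes were lower with few exceptions. Of 42 genes 37 were lower and 0 higher (median -2.17), against 14.2% lower among all genes. Ifit1, which binds viral RNA, had 1303, 159, 1764 and 1554 in the 4 libraries, and Oasl2 2782, 169, 4064 and 2884. The GTPase families of the interferon gamma response were lower in 12 of 16 cases, with Tgtp1 at 3196 without and 143 with MNU, Gbp2 at 2012 without and 236 with MNU and Gbp4 at 10461 and 5748. Of the receptor and factor genes that carry the signal, Ifnar1 stood at 4844 and 3531, Ifngr2 was 2.35-fold lower and Irf7 5.93-fold lower. The interferon response motif (GAAA, 2 bases of any kind, GAAA), on either strand, was found in 14 of 24 promoters of the list against 2.87% of all 6692, 5.15% of those of genes that were lower and 3.70% of those that were higher. The promoter of Oasl2 held no match. The promoters of Ifit1 (chr19:34640639-34640888, plus strand) and of Cxcl10, a chemokine that attracts T cells (chr5:92348890-92349139, minus strand), hold it at the places in capitals, starting 104 and 85 bases before the start in Ifit1, on the reverse strand, and 213 bases before it in Cxcl10:
Ifit1: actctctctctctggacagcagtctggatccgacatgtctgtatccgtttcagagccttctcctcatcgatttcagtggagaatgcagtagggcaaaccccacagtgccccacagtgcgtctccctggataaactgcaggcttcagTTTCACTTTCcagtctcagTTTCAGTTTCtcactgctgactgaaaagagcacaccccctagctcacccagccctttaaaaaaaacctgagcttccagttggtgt
Cxcl10: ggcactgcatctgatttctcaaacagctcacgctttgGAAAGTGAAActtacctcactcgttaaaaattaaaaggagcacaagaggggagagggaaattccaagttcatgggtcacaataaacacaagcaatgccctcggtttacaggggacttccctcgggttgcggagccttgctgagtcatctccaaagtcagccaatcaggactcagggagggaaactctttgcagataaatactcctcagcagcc

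Blood-cell markers other than those of T cells differed by type. Dendritic genes were lower in 12 of 16 cases (median -1.72), with the chemokine Ccl22 at 2049 without and 3.61 with MNU, the actin bundler Fscn1 at 2886 without and 213 with MNU, Cd83 at 4273 without and 102 with MNU and the integrin Itgax at 930.1 without and 303 with MNU. B-cell genes were lower in 10 of 15: Ms4a1 (CD20) stood at 413 without and 10.1 with MNU and Cd79a at 562 without and 50.1 with MNU, while the kinase gene Blk was 3.13-fold higher. Of 7 measured plasma cell genes 4 were lower, 1 higher and 2 within 2-fold (median -1.28). Igj, the joining chain of plasma cells, stood at 8896, 356, 20492 and 26869 in the 4 libraries. The plasma cell marker Sdc1 was the 1 that was higher (log2 difference 1.14). NK receptors Klrk1 and Klrb1c stood at 316 without and 1.75 with MNU and at 217 without and 11.97 with MNU, whereas the cytotoxic effectors Prf1 (129 without and 484 with MNU) and Gzma (1363 and 1491) were not lower. Of 3 measured mast cell and eosinophil genes all were lower, among them Cpa3 (239 without and 25.9 with MNU).

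Among macrophage and neutrophil genes more were higher than lower. Of 28 macrophage genes 12 were higher, 3 lower and 13 within 2-fold (median 0.79), against 7.14% higher among all genes. Of the defining markers, Marco was higher (log2 difference 4.29), and Emr1 (0.69), C1qa (0.28) and Csf1r (-0.13) were within 2-fold. The lower genes included Cx3cr1 (-2.71). Gpnmb, a glycoprotein of lipid-laden macrophages, stood at 227, 2195, 804 and 467 in the 4 libraries, Cd5l, an apoptosis inhibitor of tissue macrophages, at 180.5, 1523, 787 and 2451 and the mannose receptor Mrc1 at 1271, 4996, 2570.2 and 2020.5. Wild type with MNU was the highest library for Gpnmb and Mrc1 but not for Cd5l, and the knockout libraries were above wild type without MNU in each of these 3 genes. The complement genes C1qb and C1qc were 2.47-fold higher and, within 2-fold, 1.95-fold higher, the phagocytic receptor Trem2 4.25-fold higher, and the protein S relative Gas6, which bridges dying cells to macrophages, 11.7-fold lower. Arg1 and Spp1 (osteopontin), 2 of the 20 largest increases, stood at 36.7 without and 2777 with MNU and at 102 without and 6685 with MNU. Of neutrophil genes 6 of 7 measured were higher (median 1.505), such as Lcn2 (75.3 without and 443 with MNU) and Mmp9 (1010.5 without and 2509.9 with MNU). With MNU in the knockout 4 of these 7 were also higher and 0 lower (median 1.72). Itgam, the CD11b integrin of macrophages and neutrophils, was 4.94-fold higher in wild type with MNU. Among pattern-recognition genes, the lectin Clec4d stood at 18.8 without and 248 with MNU, Cd14 at 190.4 without and 1052 with MNU and Tlr13 at 174 without and 734 with MNU, and Clec7a and Casp1 were 4.12-fold lower and 4.39-fold lower.

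Chemokine ligands differed in both directions. Of 27 ligands 17 were lower, 8 higher and 2 within 2-fold. Lower ligands included those of epithelium and stroma: Ccl25, which attracts progenitors, stood at 15071 without and 70.5 with MNU, Ccl19 at 1365 without and 124 with MNU and Cxcl11 at 389 without and 0 with MNU. Higher ligands included Ccl6 and Ccl9, known from macrophages, with Ccl6 at 473 without and 5984 with MNU and Ccl9 at 339 without and 3482 with MNU, and also Cxcl13 (147 without and 2732 with MNU), which attracts B cells. The 3 genes Ccl21a, Ccl21b and Ccl21c are near-identical copies that can share reads, and Ccl21a stood at 25002 without and 119 with MNU. Of 11 receptors 8 were lower and none higher, among them Ccr8 (215 without and 0.824 with MNU) and Cxcr3 (177 without and 24.04 with MNU), receptors of mature T cells, while Cxcr4 stood at 12324 and 8911.

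Matrix and stromal genes differed in both directions. Of 28 matrix genes 8 were higher and 4 lower. The interstitial collagen genes Col1a1, Col1a2 and Col3a1 were 4.94-fold higher, 4.09-fold higher and 3.52-fold higher, fibronectin (Fn1) 3.60-fold higher, the basement-membrane proteoglycan Hspg2 4.02-fold higher and the crosslinking enzyme Loxl2 3.23-fold higher. Col1a1 had 2221, 10968, 3168 and 1542 in the 4 libraries, highest in wild type with MNU. Of 19 fibroblast, pericyte and smooth muscle genes 4 were higher and 7 lower (median -0.56). The pericyte receptor Pdgfrb was 6.27-fold higher and the fibulin Fbln1 6.55-fold higher, whereas the smooth muscle genes Myh11 and Acta2 were 7.74-fold lower and 3.32-fold lower, and periostin (Postn) was 5.68-fold lower. The fibroblast gene Dpt was 2.10-fold lower, and Dcn (5781 and 5149), Lum (717 and 457) and the pericyte gene Rgs5 (528 and 376) were within 2-fold. Endothelial genes had a median of 0.08: Pecam1 stood at 4919 and 6192 and Cdh5 at 1181 and 887, with Esm1, a tip-cell gene, 5.63-fold higher and the arterial ligand Efnb2 5.21-fold lower. Among integrins, Itga9 was 10.4-fold higher and Itgb4, of epithelial anchors, 6.26-fold lower.

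Developmental signalling genes differed in both directions. Wnt4, made by epithelium, stood at 1101 without and 90.04 with MNU and the WNT antagonist Sfrp1 at 1801 without and 104 with MNU, while Wnt5b stood at 145 without and 1132 with MNU, Fzd5 at 414 without and 1351 with MNU and Axin2, a feedback target of beta-catenin, at 786 without and 1825 with MNU. Gfra1, the GDNF co-receptor named outside the rule, stood at 749, 16472, 3099 and 572 in the 4 libraries. The semaphorin Sema3f was 5.89-fold higher and the ephrin receptors Ephb2 and Epha2 were 3.19-fold higher and 31.3-fold lower. Of 152 solute carriers 5.92% were higher and 17.1% lower, and of 194 zinc-finger Zfp genes 3.09% and 6.70%, against 7.14% and 14.2% of all genes. Slc46a2, a thymic stromal transporter, stood at 1291 without and 0 with MNU, and Slc6a13 at 173 without and 1519 with MNU. The multidrug pumps Abcb1a and Abcb1b were 3.90-fold higher and 3.05-fold higher, and Abcd2, a peroxisomal carrier, 14.5-fold lower. Polycomb and methylation genes had 1 of 24 higher, Bmi1 (1890.0 without and 3868 with MNU), and 3 lower, among them Ezh1 (2168 without and 752 with MNU), while Ezh2 stood at 7902 and 7484. Of CaMK and calcineurin genes 2 of 27 passed 2-fold, Ppp3ca (3.06-fold lower) and Itpr1 (2.38-fold lower).

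The 20 largest increases were of genes that thymus without MNU hardly expressed, with 0.979 to 102 normalised counts without and 583 to 6685 with MNU. Elavl4, a neuronal RNA-binding protein, stood at 3.95 without and 1176 with MNU, the calcium-binding Necab1 at 17.8 without and 1811 with MNU, the dopamine receptor Drd5 at 9.90 without and 1168 with MNU, Rims4, of the presynaptic zone, at 1.97 without and 583 with MNU, and Pde6a, of rod photoreceptors, at 71.4 without and 4042 with MNU. Gml and Hemt1 stood at 2.96 without and 1232 with MNU and at 0.979 without and 909 with MNU, Spsb4 at 16.8 without and 1618 with MNU and Vwce at 101 without and 6609.6 with MNU. In the knockout MNU library all 20 stood between 1.05 and 219, and in the knockout vehicle library between 116 and 1332, at a median of 15.7% of the wild-type MNU level (13.5% to 19.9%), with nothing subtracted. The 20 largest decreases stood at 1930 to 37445 without MNU and at 0 to 177 with it, and at 402 to 54971 in the knockout libraries, so that for these genes wild type with MNU lay below the 3 other libraries in each case. Outside the lists they included Mreg at 2716 without and 4.54 with MNU and Dnajc6 at 3219 without and 9.19 with MNU. The provisional gene A130040M12Rik, chosen after its values were seen, stood at 7525, 110289, 26773 and 7765 in the 4 libraries.

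Genes on chromosome 15 were shifted upward as a group. Chromosomes were taken by symbol from RefSeq for 10494 of the 10587 genes, a grouping added after the values were seen. The 445 genes of chromosome 15 had a median log2 difference of 0.40, a level 1.32-fold that without MNU, whereas the medians of the other chromosomes lay between -0.09 (chromosome 19) and 0.16 (chromosome 18). On chromosome 15, 83 genes (18.7%) were at least 2-fold higher against 7.14% of all genes, and 57 (12.8%) were lower against 14.2%. The chromosome 15 median was 0.34 under equal totals. Of its genes 69.0% lay above the median of all genes. The next highest share of genes 2-fold higher was 14.1%, on chromosome 18. The shift ran along the whole of chromosome 15: in 5 blocks of 89 genes in RefSeq order the medians were 0.51, 0.37, 0.42, 0.41 and 0.35, and Myc (2654 and 3303) lay in the second block. It was larger for abundant genes, with a median of 0.52 for the 313 genes with a mean of at least 1000 and of 0.58 for the 155 with at least 3000, where the highest median of any other chromosome was 0.17 and 0.16. Among chromosome 15 genes within 2-fold the median was 0.37, and among those in none of the lists 0.45. Xrcc6, Ly6k (369 without and 11539 with MNU, named outside the rule), Gml, Hemt1 and the ribosomal protein gene Rpl8 (29240.2 without and 66319.9 with MNU) are on this chromosome, and so are the keratin genes Krt5, Krt8 and Krt18, which were among the largest decreases. Between the knockout libraries, with minus without MNU, the chromosome 15 median was -0.08. Against wild-type vehicle it was 0.09 for the library labelled knockout vehicle and 0.00 for knockout MNU. The knockout values of -0.08 and 0.09 both rest on the knockout vehicle library, which held the share of the wild-type MNU profile given above. DNA copy number was not measured.

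**Figure D4:**
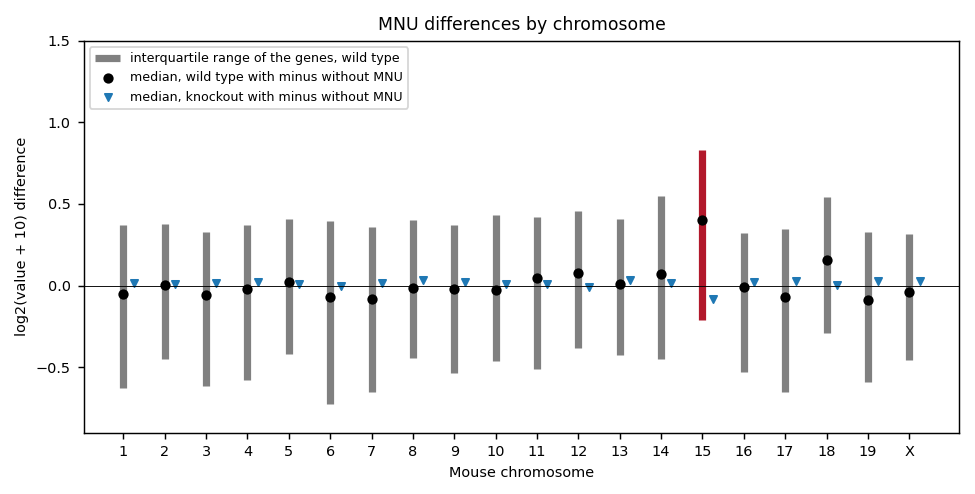
Differences of log2(value + 10) by mouse chromosome. Bars give the interquartile range over genes and black points the median for wild type with minus without MNU; triangles give the median for knockout with minus without MNU. Chromosome 15 (red) has a median of 0.40 in wild type and -0.08 in the knockout, where the vehicle library held a median of 15.3% of the wild-type MNU level in 39 genes.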

How the data were processed

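RNA of whole thymus was sequenced from 1 library per group after TruSeq v2 library preparation from RNA of integrity number above 7.5, per the labels' protocols. The deposited values are normalised counts per gene, a signal that the authors made from aligned reads; per the submitters' processing notes TopHat2 2.0.8b, edgeR and the mm9 build were used, with no role or order given. The values are not whole reads under a single scaling per library, so no count model was used, and the depth in reads is unknown. The column totals are normalised and do not measure depth.

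The gene filter asked for a 4-library mean of 10 or more and left 10587 of 10598 genes, and differences were taken as log2(value + 10), wild type with minus without MNU, with pandas 2.3.3 and numpy 2.4.6. A pseudocount of 10 reduces the differences of low genes. With 1 library per group no test was possible, and a gene or list median was called beyond a log2 difference of 1. The calculation was tested on simulated data with known changes.

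Genes were described by 73 lists, of which 72 had measured members; 15 lists were defined by symbol patterns and the others by named genes. Any list member could be named, mainly those with the largest differences (up to 8 a list) and defining markers, and so could the 20 largest increases and 20 largest decreases with at least 100 in 1 of the wild-type libraries, except provisional symbols. The comparison, its lists and the named genes were chosen with earlier results of these data known, and the text says where a gene was named outside the rule. In all 27 symbols shared identical values with another symbol in every library, in 11 sets, 6 of them beyond 2-fold; such genes are close copies or overlapping models and cannot be told apart. The sources used here do not state whether counting used strand. Chromosome names, gene order and promoters came from RefSeq for GRCm38.p6, another build than that of the counts, so no gene coordinates are given; promoter coordinates are on GRCm38.p6. Other pseudocounts, filters, scalings and a 4-fold threshold were tried. Some genes of the lists are counted but not reported by name here.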

Additional observations from a re-analysis of the deposited data

Results flagged for a closer look

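Log2 differences with MNU were compared for sign between wild type and the knockout, over the lists and over the 20 largest increases, the 20 largest decreases, Notch1, Dtx1 and Prss16. In 22 genes the signs were opposite with a size of at least 1 in both genotypes, and in 2 lists the medians were opposite with a size of at least 0.5 in both. Other genes and lists had opposite signs with smaller differences in at least 1 genotype. The size given is the wild-type difference minus the knockout difference. With 1 library in each of the 4 groups this was not tested.

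Among the NOTCH genes it was 4.30 for Notch1 and 7.91 for Dtx1, and among macrophage products 7.76 for Arg1 and 8.45 for Spp1. The other genes come from the 20 largest increases in wild type: Cym (11.80), Dpf1 (11.58), Drd5 (8.79), Elavl4 (9.84), Erc2 (12.26), Gml (10.63), Hemt1 (10.32), Il22 (10.99), Iltifb (11.91), Kcnf1 (11.01), Necab1 (9.30), Pde6a (9.72), Rims4 (9.01), Rpl3l (10.94), Sall3 (13.52), Sh3gl3 (11.86), Spsb4 (9.95) and Vwce (9.41). The knockout library without MNU held a median of 15.3% of the wild-type MNU level in 39 genes chosen for being high there, so the negative knockout differences of these genes rest on that library. Between the wild-type libraries alone the differences stand as described.

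B-cell markers had a median log2 difference of -1.59 in wild type and 0.76 in the knockout, a gap of -2.35. Erythroid markers had medians of -0.66 and 1.05, a gap of -1.71. Their summed normalised counts were 60540, 37452, 21099.5 and 43985.8 in the 4 libraries, in the order used above. The library labelled knockout vehicle was thus lowest, and knockout MNU lay between the wild-type libraries. The haemoglobin genes among them are close copies, and blood left in the tissue was not measured.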

How the results depend on the processing

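With 1 library per group no replicate could be left out and no spread could be estimated. No paired analysis was possible because each group holds 1 library and the labels give no replicate numbers. Under pseudocounts of 2.5 and 40, other filters on low values, median-of-ratios, equal-total and upper-quartile scaling, 676 to 769 genes were higher and 1430 to 1605 lower. The share of higher among all calls was lowest among the scalings under equal totals, at 29.6% against 33.5%. With a 4-fold threshold 259 genes were higher, 686 lower and 11 lists had a median beyond it, against 24 lists at 2-fold, since fewer genes pass a larger fold. The 336 single-gene recalculations covered few of the genes analysed, and none changed its call or its direction. Over all genes, calls did change with the setting, as the counts above show. Of the recalculated list medians, 581 kept their side of the threshold while 3 did not. The MHC class I median was -0.99 at a pseudocount of 40, and the TNF family median was -1.06 under equal totals and -1.03 under upper-quartile scaling; the cause was not tested. At the 4-fold threshold 3 promoter shares moved: the E2F motif was in 0% of promoters of higher genes and 0.503% of those of lower genes, and the NF-Y motif in 30.9% of those of higher genes. At 2-fold these shares were 2.61%, 1.23% and 38.5%. The number of libraries and the unknown read depth limit the precision of every value, most of all below 300 normalised counts.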
